A study of Mus musculus with 18 samples.

Results

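Isoforms that start inside annotated transcripts were taken from both deposited tables of a mouse myotube study that read both ends of each mRNA molecule (TIF-seq2). They are the nuclear rows that the authors classed as truncated at the 5′ end, and every one of them had a 5′ end at least 101 nt inside an annotated transcript, counted along the genome. The polysome table held 1555 of them among 7123 isoforms (7095 nuclear), and the decay table held 1285 among 6636 (6593 nuclear). They made up 21.9% of the nuclear isoforms and 9.55% of the nuclear coverage in the polysome table, and 19.5% and 9.15% in the decay table. In all 2513 distinct isoforms were listed, 327 of them in both tables. The isoforms just inside the boundary, 101 to 110 nt from the annotated start, had a median coverage of 36.5 (n = 52) and 85.5 (n = 40) in the polysome and decay tables. Annotated isoforms 91 to 100 nt inside had 41.5 (n = 32) and 53 (n = 36).

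Primary myoblasts were taken from gastrocnemius, a calf muscle, of wild-type females and turned into myotubes over 24 h by SCH772984, an ERK inhibitor, at 1 µM, a treatment that all groups share. For polysome profiling, ribosomes were held with 100 µg/ml cycloheximide for 5 min, lysates were spun through 10 to 50% sucrose, and free, light (2 to 5 ribosomes) and heavy (6 or more) fractions of 2 mice gave 6 libraries. For decay, 7.5 µg/ml actinomycin D blocked transcription and RNA of 3 mice at 0, 3, 6 and 12 h gave 12 libraries. Each table holds 1 pooled coverage count per isoform and 1 value of the authors, called TE (translation efficiency) or half-life, with no column for a single mouse, fraction or time, so no difference below could be tested over mice.

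The total coverage was 1601919 in the polysome table and 3121491 in the decay table, and the lowest counts listed were 11 and 21. Names were given only where the first 25 nt of a leader at the same 3′ end occurred in the RefSeq start window of exactly 1 gene, which named 50.9% of the internal-start isoforms of the polysome table and 49.5% of those in the decay table. Of 19 myotube markers 14 were matched in each table, among them Myog, Acta1, Des and Tnni1. Of 4 myoblast markers 1 was matched, Cdh15, and none of the markers of fibroblasts, endothelial cells, leukocytes, fat cells or Schwann cells was. An unmatched marker can still be present without a name.

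Transcription by RNA polymerase II starts at a promoter, usually at a purine preceded by a pyrimidine, and many genes use several start sites. A start inside a known transcript gives an mRNA that lacks the first part of the leader, or of the coding region. The ribosome scans the leader (the 5′ UTR) from the cap, and AUGs upstream of the main start codon can engage it before it gets there. A 5′ end found in a sequencing library can also be the end of a broken or incompletely copied RNA.

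To see what each isoform lost, it was set against its partner, the most covered annotated isoform with the same chromosome, strand and 3′ end. Where the last 20 nt before the start codon were the same in both leaders (or all the nucleotides of the shorter leader, with at least 10), the start codon was called kept. In Cav3, which encodes the caveolin of the muscle cell membrane, the isoform at chr6:112436698-112449832 (GRCm39, plus strand) started 232 nt inside, and 137 nt downstream of its partner. The sequences of 4 genes with a kept start codon (in the polysome table) are shown because they give the bases around the internal start and the upstream AUGs that it leaves out. In lines named "start" the lower case bases are the 15 nt of the partner's leader before the internal start, and the capitals are the first 15 nt of the internal-start isoform.
Cav3 start: gaccctaagcttggtCTTTCTGCCCCCAGG
Ufc1 start: caactgcacttccgcAGTTTTCCTGCTCCC
Scand1 start: ttcgcggatcggttcATTTCCGGCCACCGA
Ech1 start: tttttcttcgggagtAAGTCGCACAGCTCC
Ufc1, the E2 enzyme that attaches the ubiquitin-like protein UFM1, lies at chr1:171116137-171122353 (minus strand), Scand1 at chr2:156153767-156154454 (minus strand) and Ech1, an enzyme of fatty acid breakdown, at chr7:28524759-28531671 (plus strand). The Ufc1, Scand1 and Ech1 isoforms start with an A and that of Cav3 with a C. The Ech1 start lay at position -4 relative to the RefSeq start.

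In the next lines capitals mark the AUG (written ATG) of the partner's leader that the internal start skips, with 10 nt on each side.
Cav3 AUG 157 nt before the start codon: ggctgaagttATGcaggacagct
Cav3 AUG 134 nt before the start codon: gtcagccggcATGctgggtgggg
Ufc1 AUG 121 nt before the start codon: taaaaatcgaATGcattcagggt
Ufc1 AUG 66 nt before the start codon: cacagtaaagATGgcgacgccgt
Scand1 AUG 206 nt before the start codon: gccggctccaATGgggaccttgc
Scand1 AUG 162 nt before the start codon: agtagagctgATGtctacggact
The partners of Cav3, Ufc1 and Scand1 (in the polysome table) each had 2 upstream AUGs, and the internal-start isoforms had 0.

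The starts lay at very different depths. In the polysome table the median start was 1302 nt inside (95% interval 1110 to 1539, n = 1555), with quartiles of 263 and 6112 nt. In the decay table it was 1186 nt (899 to 1476, n = 1285). Starts 101 to 200 nt inside were 18.8% and 21.5% of the members, and starts more than 10000 nt inside were 17.7% and 18.9%. The isoforms found in both tables started closer to the annotated end, at a median of 308 nt (239 to 399, n = 327). They were also the better covered ones, with a median coverage of 58 against 22 for isoforms in the polysome table alone, and 109 against 41 in the decay table.

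A partner existed for 1169 of the 1555 isoforms in the polysome table and for 926 of the 1285 in the decay table. The start codon was kept in 175 and 129 of them, and the leader led to another start codon in 669 and 553. The leader cell was empty for 265 and 192, in 59 and 52 a leader under 10 nt did not allow a call, and 1 polysome partner had an empty leader cell. The other 386 and 359 isoforms ended where the table listed no annotated isoform, and some of them lacked a leader too.

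The classes differed in depth and in coverage. Isoforms with a kept start codon began a median of 177 nt inside (158 to 195, n = 175) in the polysome table and 156 nt (149 to 174, n = 129) in the decay table. Those leading to another start codon began 2918 nt (2359 to 3332, n = 669) and 3080 nt (2510 to 3724, n = 553) inside, and those without a leader 3260 nt (2972 to 4398, n = 265) and 4291 nt (3166 to 5620, n = 192). The kept class had a median of 29.1% of the partner's coverage (15.2 to 57.7) in the polysome table and 42.7% (26.7 to 84.8) in the decay table. The other-codon class had 1.47% (1.21 to 1.63) and 1.82% (1.42 to 2.12), and the class without a leader 1.18% (0.982 to 1.42) and 1.41% (0.981 to 2.13). An isoform with a kept start codon was covered more than its partner in 50 of 175 cases and 49 of 129, against 26 of 669 and 34 of 553 with another start codon. Because isoforms below the lowest listed count are absent, a low share could be seen only beside a well covered partner. The partners' median coverage was 177 and 155 in the kept class and 2248 and 4040 in the other-codon class. A lower count can come from fewer cells that make an isoform or from less of it per cell, and these cannot be told apart in bulk RNA.

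**Figure D1:**
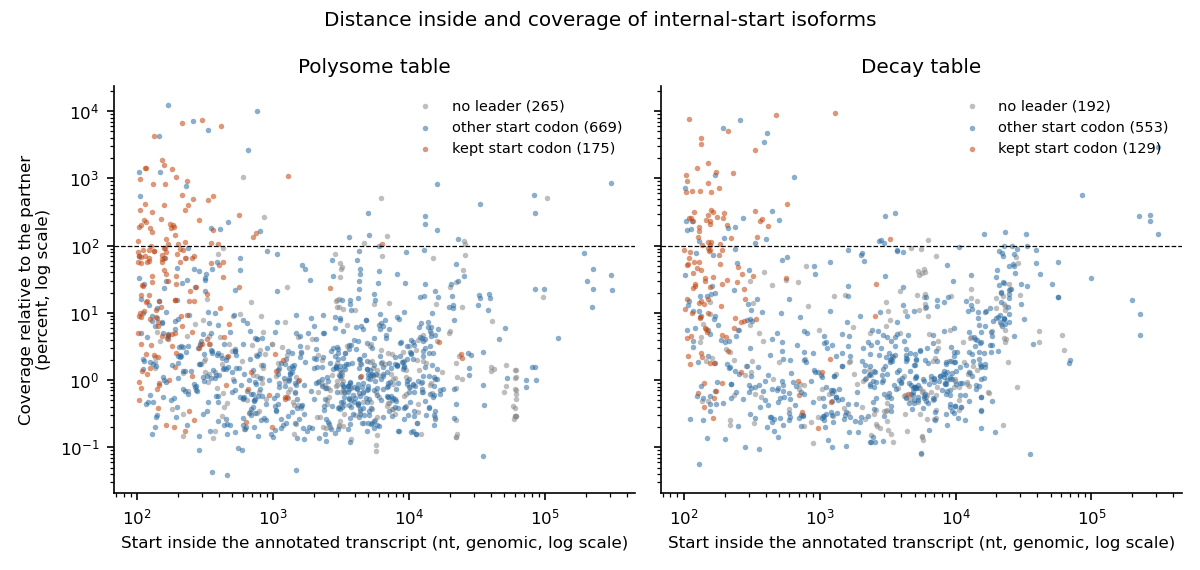
Coverage of each internal-start isoform as a percentage of its annotated partner's coverage (log scale) against the distance of its start inside the annotated transcript (nt, log scale), for 3 classes; the dashed line marks equal coverage. Isoforms with a kept start codon lie to the left, at medians of 177 and 156 nt, and reach above the line, while those with another start codon spread to the right at medians of 1.47% and 1.82%.

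Cav3 was one of the genes in which the internal start was the main one. Its isoform had a coverage of 4382 in the polysome table, 86.4% of all coverage at that 3′ end, and 8709 in the decay table, 90.0%. The unnamed isoform at chr9:50664533-50667933 (plus strand) had the highest coverage of all members in both tables, 6364 (73.1% of its 3′ end) and 14221 (81.4%), and started 213 nt inside with its start codon kept. Gpx4, the selenoprotein that reduces lipid peroxides, had 3638 of 3667 counts (99.2%) on an isoform 170 nt inside at chr10:79889492-79892273 (plus strand) in the polysome table, and 6909 of 7525 (91.8%) in the decay table. That Gpx4 start lay 1 nt from the RefSeq start. The unnamed isoform at chr5:125463041-125466818 (minus strand) held 94.8% and 97.5% of its end, and Scand1 97.2% and 100%. All 5 thus carried most of the coverage of their 3′ end in both tables. Creld1 held 88.3% at its end in the polysome table, with an isoform of coverage 3072 at chr6:113460559-113470299 (plus strand) that kept the start codon.

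Other starts were also well covered in at least 1 table. Cdh15, the M-cadherin by which myogenic cells adhere to each other, had its main isoform at chr8:123575121-123594133 (plus strand), 416 nt inside, with a coverage of 4887 and 3312. Its start lay at position 9 when the RefSeq start counts as position 1, and all 5722 counts at that 3′ end in the polysome table lay on internal starts. Rpl35, a protein of the large ribosomal subunit, had a coverage of 1743 and 7218 on an isoform 499 nt inside, at position 7 counted in the same way. The isoform at chr10:128330026-128333266 (minus strand), which shares its 3′ end with a leader matching Myl6b, a myosin light chain, had a coverage of 726 and 5227. Leaders matching Myl6b made up only 9.90% and 0.630% of the coverage at that end, so the name applies to the end and not to this start. The same holds for other names taken from the 3′ end. Matching leaders held 2.09% and 0.940% of the Cav3 end, 1.18% of the Creld1 end and 2.78% of the Scand1 end (polysome). They held 0.277% and 0.218% of the Uqcrc1 end. The share was 0% at the Tpm2, Ufc1 and Scand1 ends in the decay table and at the Znhit2 end in the polysome table, so there the name came from the other table. An unnamed isoform at chr1:66963457-66984189 (minus strand) had a coverage of 10108 in the decay table and 129 in the polysome table, and it started upstream of its partner, which had 5671 and 475. Own leaders matched a RefSeq start window in 4.82% and 6.07% of all internal-start isoforms, against 35.7% and 34.9% of annotated isoforms. The window ends 50 nt after a RefSeq start, and internal starts lie at least 101 nt inside an annotated transcript. The definitions themselves thus lower the share of internal-start isoforms, and the contrast is no finding about them. Among isoforms without an annotated partner the share was 14.5% and 17.8%.

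Summed over isoforms, internal starts took a modest part of most 3′ ends. At the 384 polysome and 335 decay ends that also held another kind of isoform, their median share of coverage was 9.69% (7.75 to 11.9) and 11.5% (9.05 to 15.3). They held over 50% of the coverage at 65 of 384 ends (16.9%) and 78 of 335 (23.3%), and under 5% at 135 and 108. Among members in both tables, the coverage of all 327 had a Spearman's rho of 0.60 between the tables. Where the partner was also the same, coverage relative to the partner had a rho of 0.92 over 138 pairs. The log2 of the polysome over the decay ratio nevertheless had an SD of 1.30 over these pairs. Isoforms and pairs of 1 gene are not independent, so each rho is a description.

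The number of internal starts rose with the coverage of the 3′ end. An end with a coverage of at most 30 held one in 6.70% (5.40 to 8.28) of cases in the polysome table and 8.38% (6.41 to 10.9) in the decay table. Above 3000 the shares were 75.3% (65.6 to 82.9) and 55.6% (48.6 to 62.3), with 6.06 and 2.85 internal starts per end. Ends with 5 or more of them numbered 65 and 53 and held 44.0% and 40.7% of all members. The table minimum acts in the same direction, and its part in this rise was not tested.

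**Figure D2:**
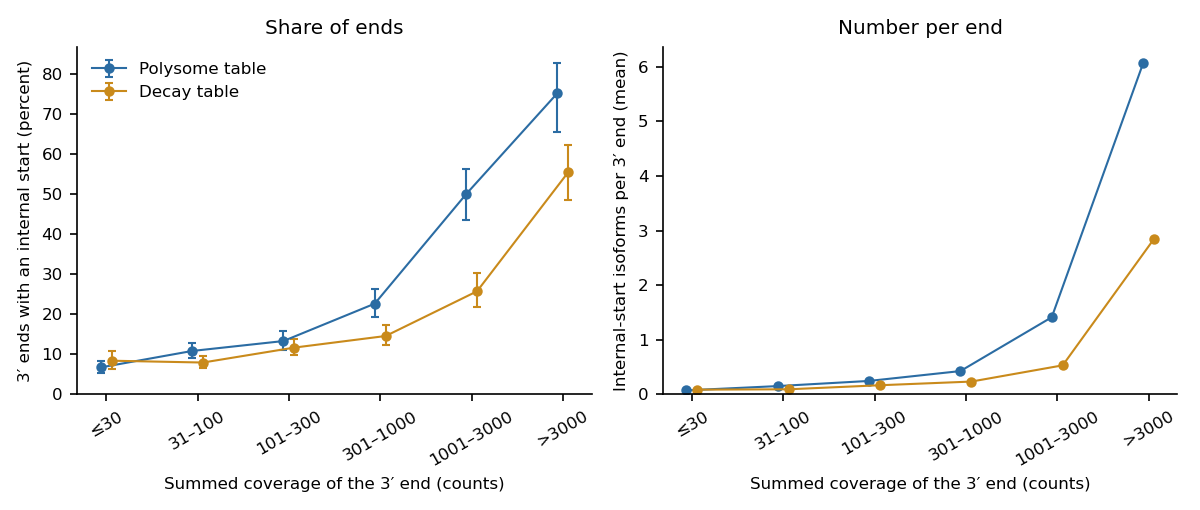
Left, percentage of 3′ ends with at least 1 internal-start isoform, with 95% Wilson intervals, and right, mean number of such isoforms per 3′ end, by the summed coverage of the end (counts), for the polysome and decay tables. Both rise with coverage, to 75.3% and 6.06 per end in the polysome table and 55.6% and 2.85 in the decay table.

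Of the most crowded ends some could be named. An unnamed end at chr19:4911251 (minus strand) held 37 members in the polysome table and 29 in the decay table. Eef2, the elongation factor that moves the ribosome along the mRNA, had 36 and 28, Pkm, the last kinase of glycolysis, 26 in the polysome table, and Myh3, the embryonic myosin heavy chain, 30 in the decay table. At Eef2 the 36 starts of the polysome table were spread from 1052 to 5492 nt inside, with a median coverage of 33 and a highest of 183 against 4590 for the partner. Together they held 26.4% of that end. At Myh3 the 30 starts lay between 13792 and 23344 nt inside and together held 77.9% of the end, although the largest had 1100 counts against 1342 for the partner. None of these Eef2 and Pkm members of the polysome table and Myh3 members of the decay table kept the start codon.

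**Figure D3:**
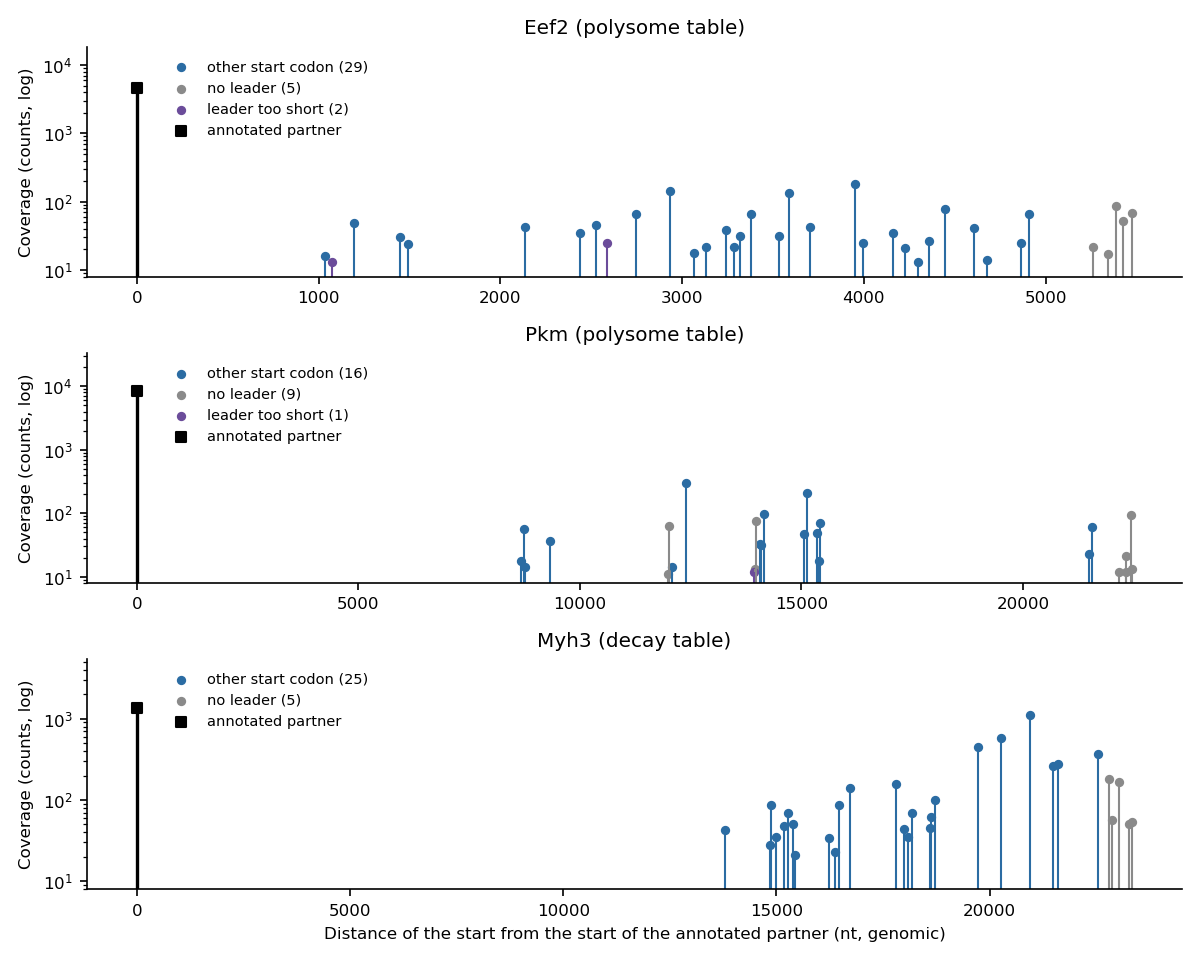
Coverage (counts, log scale) of each internal-start isoform at the Eef2, Pkm and Myh3 3′ ends against the distance of its start from the partner's start (nt, genomic); the square is the annotated partner. At Eef2 all 36 starts stay at or below 183 counts against 4590, while at Myh3 the largest reaches 1100 against 1342.

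Counted in the gene groups, sarcomere genes (actins, myosins, troponins, tropomyosins and others) had 89 and 138 members in 17 genes in each table, translation factors 42 and 29, glycolysis 47 and 41 in 5 genes (Aldoa, Eno1, Pfkm, Pkm, Tpi1), ribosomal proteins 30 and 24, and the respiratory chain 17 and 16. Proteasome genes had 1 and 2 members, and chaperones 0 and 1. Eef2 alone gave most of the translation factor count. The groups differ in coverage, with which internal starts rose, and the counts were not adjusted for it. Annotated coverage was 72777 and 214489 for sarcomere genes, 39920 and 82733 for ribosomal proteins and 33039 and 96771 for the respiratory chain. It was 25698 and 55753 for glycolysis, 13632 and 28821 for translation factors, 2431 and 6354 for the proteasome and 6295 and 13148 for chaperones. Kept start codons were found in 5 and 3 of the ribosomal protein members, in 3 and 2 of the sarcomere members and in 0 and 0 of those of glycolysis and translation factors.

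The base at the start separated the classes. This was counted only where another isoform with the same leader end showed that the leader begins at the mapped position, which held for 426 of 1247 and 305 of 1054 internal-start leaders. With a kept start codon the first base was A in 60.8% (52.7 to 68.5, n = 143) and 66.0% (56.3 to 74.5, n = 100), as against 61.6% (58.7 to 64.4, n = 1135) and 65.6% (62.1 to 68.9, n = 738) in annotated isoforms. With another start codon it was A in 32.0% (25.5 to 39.2, n = 175) and 43.3% (35.4 to 51.5, n = 141). T came first in 21.1% and 12.1% of the other-codon class, in 3.50% and 1.00% of the kept class and in 2.38% and 1.63% of annotated isoforms.

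The bases on both sides of the start could be read from a longer leader at the same place. The pair CA, with C just before and A at the start, was found at 59 of 141 kept-codon starts (41.8%, 34.0 to 50.1) in the polysome table and 49 of 101 (48.5%, 39.0 to 58.1) in the decay table. CA made up 5.78% and 5.68% of all positions in those leaders. With another start codon it was found at 18 of 116 (15.5%, 10.0 to 23.2) and 16 of 85 (18.8%, 11.9 to 28.4), against 7.30% and 7.50% of positions. Any pyrimidine followed by a purine occurred at 68.8% and 71.3% of kept-codon starts and at 33.6% and 34.1% of the other-codon starts, against 21.3% to 22.1% of positions in all 4 sets. Starts at 1 gene share its sequence, so these intervals cover counting error only.

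The deposited leaders of deep starts need care. A total of 96 members (polysome) and 79 members (decay) carried a leader listed for several 5′ ends, which cannot begin at all of them, and all of these leaders began with GT. No annotated isoform did so. GT began 20.4% and 19.5% of internal-start leaders and 7.25% and 7.43% of annotated ones. In position-checked leaders the share was 5.16% and 4.59%. Leaders listed for several 5′ ends cannot pass that check through each other, so the check itself can lower this share. The first bases of 4 leaders that begin with GT are shown, with a capital for the first base. The leader listed for Uqcrc1 had 18 nt, fewer than its line shows. Both Mad1l1 lines come from the end at chr5:139994453, minus strand.
Mad1l1 end, start at 139999482: Gtaggcagcactgtgtgtgt
Mad1l1 end, start at 139997217: Gtaggcagcactgtgtgtgt
chr5 end at 74366753, start at 74423362: Gtgagtgtggaacaaaccct
Uqcrc1, start at 108773213: Gtaagtctcataaagtccat
A GT is also how an intron begins. The starts of the Mad1l1 end were, at 307825 and 310090 nt inside, among the deepest, and only 9.80% and 3.14% of the coverage at that end had a leader matching Mad1l1. At the chr5:74366753 end (minus strand) starts 269048 and 269033 nt inside had a coverage of 59 and 49 in the decay table.

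Leaders of internal starts were shorter and poorer in GC than those of annotated isoforms. Their median length was 98 nt (90 to 105, n = 1247) against 116 nt (112 to 121, n = 3557) in the polysome table, and 82 nt (74 to 89, n = 1054) against 102 nt (97 to 107, n = 3417) in the decay table. Median GC content was 59.0% against 63.1%, and 58.5% against 62.8%. They held an upstream AUG more often, in 49.5% (46.7 to 52.3) against 39.6% (38.0 to 41.3), and in 45.4% (42.5 to 48.5) against 33.5% (31.9 to 35.1). A purine at position -3 from the start codon, part of the Kozak context, was present in 70.9% against 85.9% and in 73.1% against 87.3%. TOP starts (C and then 4 pyrimidines) were found in 2.97% against 5.62% and in 3.13% against 5.82%.

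The classes differed in these features. Leaders had a median length of 108 nt (89 to 135) and 72 nt (64 to 91) with a kept start codon, 108 nt (100 to 125) and 103 nt (92 to 125) with another, and 85 nt and 68 nt without an annotated isoform at the end. Of the other-codon leaders 340 of 669 and 296 of 553 were longer than the partner's. With a kept start codon an upstream AUG was left in 37.7% (30.9 to 45.1) and 27.1% (20.2 to 35.4), and the internal start removed a median of 114 nt (99 to 143) and 123 nt (108 to 143) of leader. In 71 of 175 and 52 of 129 of these pairs the leader had fewer upstream AUGs than the partner's. With another start codon 65.8% (62.1 to 69.3) and 64.9% (60.9 to 68.8) of leaders had an upstream AUG, and a purine stood at -3 in 63.1% and 64.6%. Of other-codon leaders of at least 60 nt, 67.2% (62.9 to 71.3, n = 482) and 68.2% (63.4 to 72.7, n = 387) had no stop codon in frame with the start codon, against 30.6% (28.9 to 32.4, n = 2611) and 32.5% (30.6 to 34.4, n = 2369) of annotated leaders. An AUG in that frame was present in 4.98% and 5.43% of them, against 23.4% and 21.5%. At 105 and 96 ends with several such members, 502 and 432 members led to 292 and 250 different start codon contexts.

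Translation efficiency was compared in pairs with a coverage of at least 30 on both sides. With 1 pair per 3′ end the internal-start isoform had a TE of 0.11 (log2, 0.027 to 0.27, n = 174 pairs) relative to its partner and was higher in 104 of them. Against the nearest annotated start as partner it was 0.048 (-0.078 to 0.14, n = 141), and at a coverage minimum of 15 it was 0.081 (-0.016 to 0.15, n = 275). Over every member it was 0.063 (-0.020 to 0.14, n = 380). All isoforms, these members included, had a median of -0.016 (n = 886) against the most covered annotated isoform at their own 3′ end. Pairs at 1 end share their partner's value, and intervals describe the spread over pairs, not over mice. Annotated isoforms whose starts lay within 20 nt of each other at 1 end differed by an SD of 0.35 (log2, n = 13), which gives the size of difference that nearly the same mRNA can show.

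The higher TE was clearest with a kept start codon. Over every member of that class the median was 0.32 (0.13 to 0.41, n = 79). Of the 79 isoforms 57 were higher than their partner, 9 at least 2-fold higher (11.4%) and 0 at least 2-fold lower. Of all 886 pairs 6.32% were at least 2-fold higher and 9.82% at least 2-fold lower. With another start codon the median over every member was 0.012 (-0.068 to 0.095, n = 280), with 15 at least 2-fold higher and 36 lower. With 1 pair per 3′ end the medians were 0.26 (0.066 to 0.40, n = 64) and 0.068 (-0.061 to 0.23, n = 117), and these intervals overlap. TE was not listed for 292 of 308 members without a leader, so that class had 6 pairs, all lower, at a median of -0.78 (-1.02 to -0.077). Members with a leader lacked a TE in 5 of 1247 cases.

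Within the kept class the difference went with the loss of upstream AUGs. Where the internal start had fewer upstream AUGs than the partner, the median was 0.46 (0.39 to 0.59, n = 40) and 35 of 40 were higher. Where it had not, the median was 0.056 (-0.11 to 0.29, n = 39) and 22 of 39 were higher. The pairs that lost an AUG also lost more leader, a median of 150.5 nt (109 to 200) against 90 nt (59 to 116), and the parts of AUGs and length cannot be told apart here. With another start codon, pairs that lost an AUG had a median of 0.049 (-0.33 to 0.45, n = 45) and the others 0.0091 (-0.088 to 0.11, n = 235). With 1 pair per 3′ end the kept class had 0.45 (0.23 to 0.61, n = 31) where an AUG was lost, against 0.013 (-0.15 to 0.29, n = 33). With 1 pair per 3′ end and all classes, it was 0.40 (0.13 to 0.59, n = 51) against 0.060 (-0.056 to 0.17, n = 121). In both of these comparisons the intervals overlap.

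**Figure D4:**
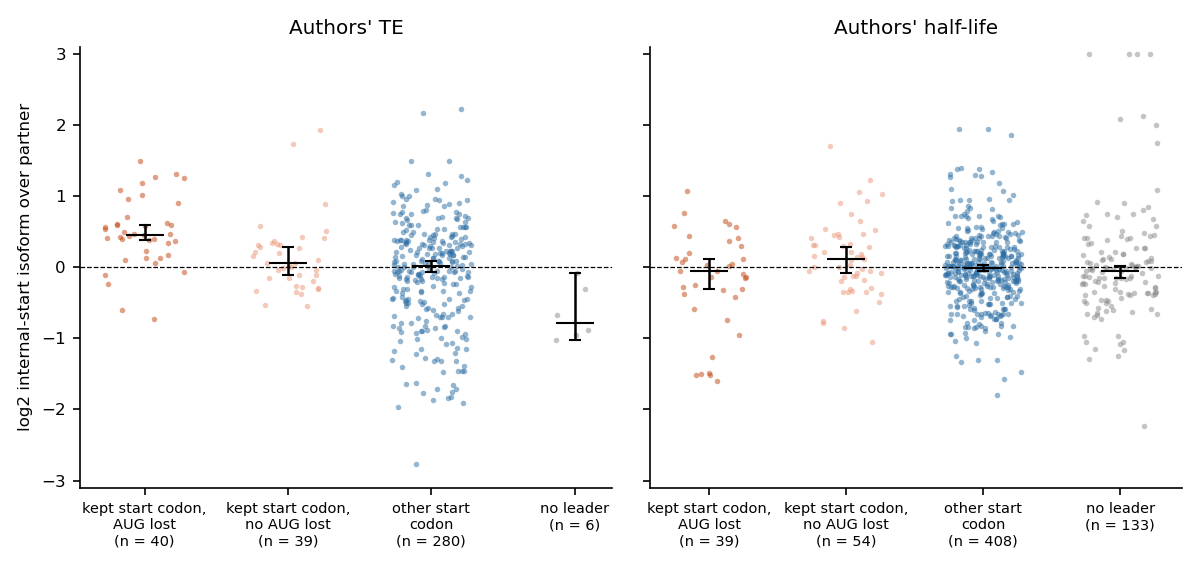
log2 of the authors' TE (left) and half-life (right) of internal-start isoforms over their annotated partner, 1 point per pair with a coverage of at least 30 on both sides, by class; bars give the median and its 95% interval, and 4 half-life ratios above 3 are drawn at 3. The kept-codon pairs that lost an upstream AUG lie highest for TE, at a median of 0.46, and show no such shift in half-life, at -0.049.

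Single genes showed the sizes involved. Cav3 had a TE of 0.000985 on the internal start and 0.000722 on the partner, a log2 difference of 0.45. For Ufc1 the values were 0.00105 and 0.000435 (1.28), for Ech1 0.000817 and 0.000319 (1.35) and for Scand1 0.00165 and 0.00121 (0.45), although the partners of the last 2 had only 11 and 12 counts. The isoform at the Myl6b end had 0.00113 against 0.000455 (1.31), and the one at chr9:50664533-50667933 0.00138 against 0.000927 (0.57). In each of these 6 pairs the internal-start isoform had fewer upstream AUGs and the higher TE. Of these starts, that of Ech1 lay at position -4 relative to the RefSeq start. Creld1, with 1 upstream AUG on either side, had 0.000598 against 0.000730 (-0.29). The unnamed isoform at chr9:59446975-59472390 (plus strand), with no upstream AUG on either side and 94.9% of its end, had 0.000423 against 0.000642 (-0.60), with 11 counts on the partner. Both were lower than their partner, as was Gpx4, whose start codon differed (-0.33). Other partners were also thinly covered, with 29 counts for Gpx4 (under the minimum of 30), 41 for Creld1 and 66 at the Myl6b end. The Ufc1 isoform and its partner had 46 and 51.

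Where both isoforms of a pair had 100 counts or more, the highest TE against the partner was 1.74 (log2) for the unnamed isoform at chr9:21914724-21925515 (plus strand), with 0.00242 against 0.000725. It kept its start codon, with no upstream AUG on either side. It was followed by Nkiras2 (1.31), 2 Aldoa starts (1.16 and 1.11) and Uqcrc1 (1.09), a core subunit of respiratory complex III, all with another start codon. The lowest were Znhit2 (-1.82), whose listed leader had 6 upstream AUGs against 0, starts at an unnamed chr18 end (-1.75 and -1.41) and at an unnamed chr10 end (-1.71 and -1.47), all with another start codon and more upstream AUGs than the partner or as many. All of these passed 2-fold, which 6.32% (higher) and 9.82% (lower) of all pairs did.

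At ends with many scattered starts the sign of the TE difference was shared by most members. In 14 ends with at least 5 other-codon pairs, all members were higher than the partner at 4 ends and all lower at 3. The medians of the 14 ends had an SD of 0.57 (log2) and members within an end an SD of 0.35. At Eef2 0 of 18 members were higher (median -0.48, TE from 0.000138 to 0.000246 against 0.000258), and at Acta1, the skeletal muscle actin, 0 of 8 (-0.14). At Pkm 11 of 11 were higher (0.39, TE from 0.000606 to 0.00226 against 0.000500), at Aldoa 9 of 10 (0.40) and at Tpm2, a tropomyosin, 6 of 6 (0.25). An unnamed end at chr10:80644332 (minus strand) had 0 of 5 higher, at -1.47, with 0.000681 to 0.00100 against 0.00223. Each end's members are set against 1 partner value, so its error is common to them.

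**Figure D5:**
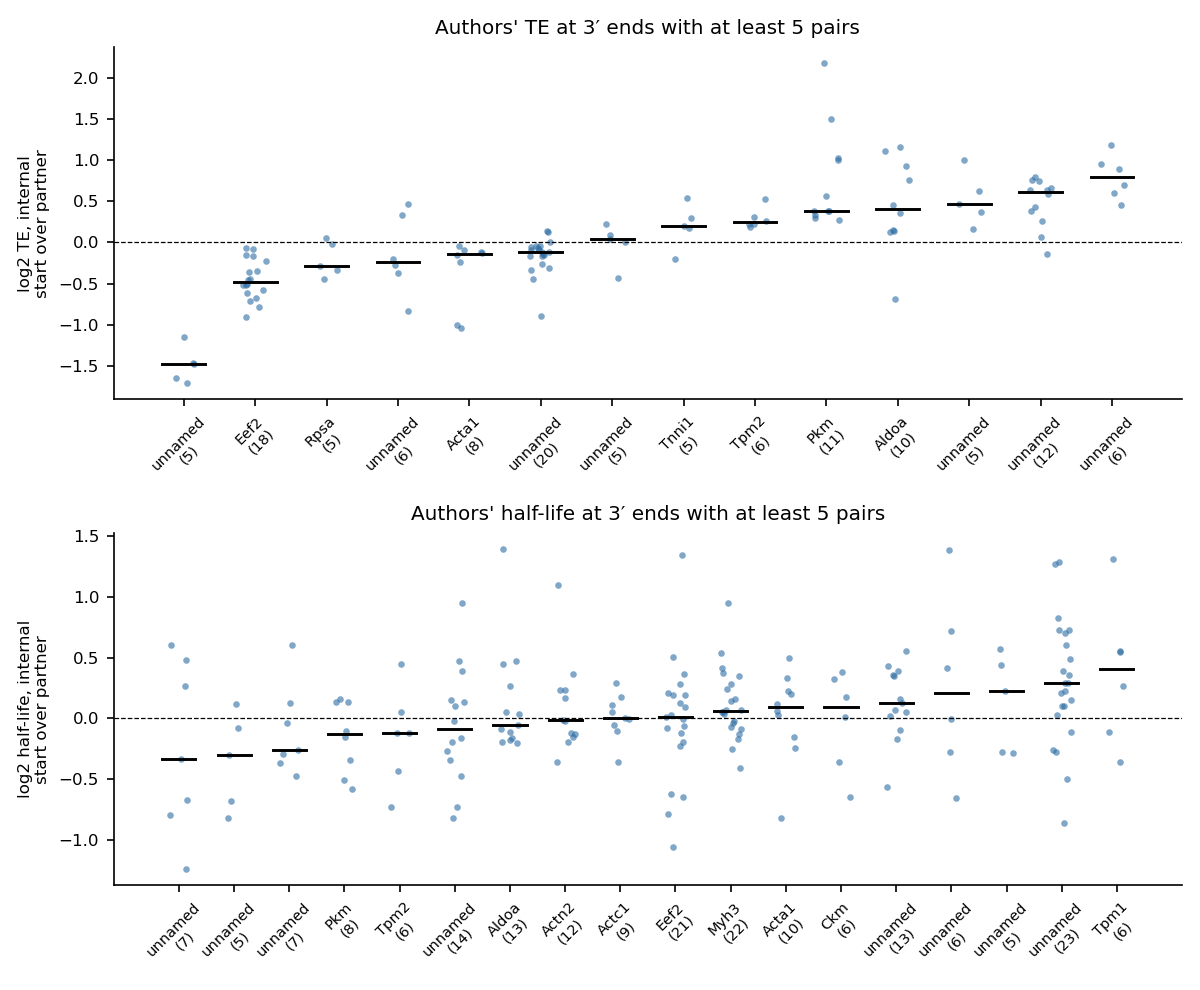
log2 of TE (top) and half-life (bottom) of internal-start isoforms with another start codon over their partner, at 3′ ends with at least 5 such pairs, ordered by the median (bars), with the number of pairs below each name. For TE, Eef2 and Acta1 lie wholly below 0 and Pkm and Tpm2 wholly above, while the members of the half-life ends scatter to both sides.

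By gene group, the 22 glycolysis pairs had a median TE difference of 0.38 (log2), 20 were higher and 6 at least 2-fold, against 6.32% of all pairs. Most of them come from the Pkm and Aldoa ends. The 18 translation factor pairs, all at the Eef2 end, had -0.48 with 0 higher, the 42 sarcomere pairs 0.00080 with 21 higher, and the 9 ribosomal protein pairs -0.28 with 3 higher. The 4 respiratory chain pairs had -0.77, with 1 at least 2-fold higher and 1 at least 2-fold lower. The median of all 886 pairs was -0.016.

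The half-lives of internal-start isoforms lay close to those of their partners. With 1 pair per 3′ end the median difference was -0.0038 (log2, -0.061 to 0.054, n = 254), and 126 of 254 were higher. Over every member it was -0.014 (-0.049 to 0.017, n = 666), at medians of 11.0 for members and 11.5 for partners in the authors' unit, which is not stated. All isoforms, these members included, had -0.036 (n = 1283) against the most covered annotated isoform at their own 3′ end. A kept start codon gave 0.017 (-0.098 to 0.14, n = 93), another start codon -0.0038 (-0.057 to 0.039, n = 408) and no leader -0.045 (-0.16 to 0.020, n = 133). With 1 pair per 3′ end the class without a leader had -0.12 (-0.30 to -0.0027, n = 72), and 27 of 72 were higher. At least 2-fold higher were 32 of 666 (4.80%) and at least 2-fold lower 24 (3.60%). Of all 1283 pairs, which include these 666, the shares were 3.90% and 4.13%. Near-identical annotated pairs had an SD of 0.49 (n = 15).

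The kept-codon pairs that lost an upstream AUG had a median half-life difference of -0.049 (-0.30 to 0.12, n = 39), with 18 of 39 higher, and those that did not 0.11 (-0.078 to 0.29, n = 54), with 31 of 54 higher. The intervals overlap, and the median of all 1283 pairs lies in both. In Cav3 the internal start had 11.8 and the partner 17.8 (-0.59), and in Ufc1 22.8 and 54.8 (-1.27). At the chr9:50667933 end, where the partner of the decay table began at 50663183 and had 279 counts and a half-life of 35.4, 3 internal starts had 12.4, 11.7 and 12.7. These 3 chr9 starts, Ufc1 and an isoform of Cav3 that starts at 112436791 and has no leader (-1.08) were the 5 lowest among pairs with at least 100 counts on both sides.

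The 5 highest were starts of low share with no kept start codon. Tpm2 had 119 at a start 7379 nt inside without a leader, against 11.8 for its partner (3.34), and Tnni1, the slow troponin I, 43.6 against 12.0 (1.86). If the unit is hours, these long values lie past the last time of 12 h, as do 54.8 and 35.4 for the Ufc1 and chr9 partners. Starts at an unnamed chr2 end, in Tecr, an enzyme of fatty acid elongation, and in Eef2 had 1.39, 1.39 and 1.34. Each of the 5 starts held 0.296% to 3.43% of its 3′ end.

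No 3′ end with at least 5 other-codon pairs had all half-lives on 1 side of the partner, over 18 ends. At Eef2 11 of 21 were higher (median 0.0098), at Myh3 14 of 22 (0.063), at Aldoa 6 of 13 (-0.052) and at Acta1 7 of 10 (0.090). The medians of the ends had an SD of 0.20 and members within an end 0.44. Across the 201 members with both values and a coverage of at least 30, TE and half-life had a Spearman's rho of 0.18, a description over isoforms that share genes.

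The gene groups gave small half-life differences. The 118 sarcomere pairs had a median of 0.043 (log2) with 65 higher and 5 at least 2-fold higher, against 3.90% of all pairs, the 27 glycolysis pairs -0.087 with 11 higher, and the 26 translation factor pairs 0.017 with 14 higher. The 12 ribosomal protein pairs (-0.28, 3 higher) and the 11 respiratory chain pairs (-0.19, 2 higher) lay lower. All isoforms had a median of -0.036, and no group was tested. Hspb3, a small heat shock protein, was the single chaperone pair, at 1.71.

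The deepest well covered start was at the Mad1l1 end. The isoform starting at 139999482 had a coverage of 828 (84.5% of the end) and 3870 (92.2%), more than any other isoform there. Its TE was 0.000223 against 0.000615 for the partner (-1.46), and its half-life 14.5 against 8.81 (0.72). The partner had 96 and 132 counts, and its start lay 307843 nt upstream.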

How the data were processed

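Both tables are the authors' deposited output of TIF-seq2, which reads the 5′ and 3′ end of each mRNA. Per the submitters' processing notes, bcl2fastq 2.20.0, cutadapt 1.16, UMI-tools 0.5.4, STAR 2.5.3a and the build GRCm39 were used. Coverage is a whole-number count per isoform, deposited as 1 value pooled over the libraries of an assay, with 0 per-library columns. The clustering of ends, the formulas behind TE and half-life and their units are not stated in the sources used here.

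The members, lists and comparisons were chosen with earlier results of these data known. A value of 0 or below (11 TE, 16 half-life) or not listed was left out, as were 6 and 19 mitochondrial isoforms. Medians have exact binomial order-statistic intervals and shares have Wilson intervals, both at 95%. They cover counting error over isoforms, which share genes and are not replicates, so no p-value was computed. Pairing and counting were tested on simulated data.

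The isoforms described singly are the 6 of highest coverage per table, the 5 highest and lowest TE and half-life differences (100 counts on both sides), the 5 with the largest share of an end among those in both tables and the 4 deepest per table. RefSeq start windows (GRCm38.p6, 250 nt before to 50 nt after the start) served only for names. Python 3.11.15, numpy 2.4.6, pandas 2.3.3, scipy 1.17.1 and matplotlib 3.10.9 were used.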

Additional observations from a re-analysis of the deposited data

Results flagged for a closer look

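Internal starts on the mitochondrial chromosome were left out of every comparison, and they were present in both tables. They had a summed coverage of 218 over 6 isoforms in the polysome table and 1926 over 19 isoforms in the decay table. The starts lay 419 to 915 nt inside in the first and 103 to 1256 nt inside in the second. Of the 19, 18 had a half-life, with a median of 6.89 in the authors' unit.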

How the results depend on the processing

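Recomputed under the alternatives, 47 summary values stayed within the 95% intervals of the reported ones, and 13 did not. A difference by upstream AUGs lost has no interval of its own. It was counted as staying where the medians of both groups lay within their own groups' intervals. The sign changed in 6 of the 60. The cause of the 13 was not tested. With a coverage of at least 30 the median polysome start lay 763 nt inside in place of 1302, and in members of both tables it lay at 308 nt in place of 1302 and 1186. The share of a 3′ end was 7.39% in place of 9.69% at polysome ends with 100 or more counts. Counting ends with any other isoform, it was 15.6% (polysome) and 17.4% (decay, in place of 11.5%). For members with an annotated isoform at the end, leader GC was 58.1% and 57.0%, and 56.4% and 54.6% of leaders had an upstream AUG. The TE difference between pairs that lost an upstream AUG and those that did not (0.34 log2) was -0.025 with another start codon only. The half-life difference (-0.015) was -0.16 at a coverage minimum of 60, -0.18 with a kept start codon only and 0.22 with another start codon only. With a kept start codon it was 0.014 against the nearest annotated start. The half-life difference over all pairs (-0.0038) lay between 0.037 and 0.052 under 3 alternatives. For most of 54 single pairs the nearest annotated start was that of the same partner, so their value could not move. Of the 54, 51 moved by less than the SD of near-identical annotated pairs or not at all, and 3 by more. These were TE at chr1:66963457-66984189 (0.49 to -0.34), half-life at chr5:125463041-125466818 (-0.22 to 1.15) and TE of Tnni1 at 135735303 (-0.20 to -0.83). The alternatives on start codon class, on ends with any other isoform and on leaders listed for several ends were chosen after seeing the data. No paired analysis was possible because the tables hold no value per mouse, and for the same reason no replicate could be left out. A low count limits single values: isoforms under 11 and 21 counts are not listed.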
